A study of Mus musculus with 8 samples.

Results

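The Rab GTPases are described here across all 4 groups of a bulk RNA sequencing experiment on mouse bone marrow-derived macrophages (BMDMs). They were selected on symbol and abundance alone. Of 50615 genes in the deposited count table, 59 carry a symbol made of Rab, a number and at most a short paralog suffix. Of these, 54 had a rounded count sum of at least 10 over the 8 libraries and entered the tests with 17625 genes in all. Rab proteins are small GTPases of the Ras superfamily that mark intracellular membranes and switch between a GDP-bound form, held soluble by GDP dissociation inhibitors, and a GTP-bound form that recruits effectors for vesicle budding, movement, tethering and fusion. Guanine nucleotide exchange factors (GEFs) turn a Rab on, GTPase-activating proteins (GAPs) turn it off, and a geranylgeranyl lipid added with the help of Rab escort proteins anchors it to its membrane. In macrophages they are best known for phagosome maturation, for the sorting of Toll-like receptors and for the release of cytokines and granule contents.

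The BMDMs came from C57BL/6 mice and were compared by genotype and by culture condition. Both genotypes carried floxed alleles of *Ncoa6*, which encodes nuclear receptor coactivator 6. The *Ncoa6*-sufficient cells were *Ncoa6* fl/fl (named WT in the labels) and the *Ncoa6*-KO cells were *Ncoa6* fl/fl LysM CRE, in which Cre is driven from the lysozyme M locus (*Lyz2*) and recombination is therefore restricted to myeloid cells that use that locus. All cells were grown with M-CSF, the macrophage growth factor, at 20 ng/ml for 6 days. They were then left with medium alone or given lipopolysaccharide (LPS) at 100 ng/ml for 4 h followed by monosodium urate (MSU) crystals at 200 µg/ml for 2 h, a priming and activation scheme for the NLRP3 inflammasome that is modelled on gout. Each of the 4 groups held 2 libraries from different mice, so the design compared genotypes within each condition, conditions within each genotype, and the genotype differences of both conditions with each other (the interaction).

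The deposited expected counts summed to between 25281955 and 33673552 per library. *Ncoa6* itself was measured first as a check of the labels: it stood at 1515 and 1405 normalized counts in *Ncoa6*-sufficient and 784 and 622 in *Ncoa6*-KO libraries with medium alone (log2 fold change -1.05, SE 0.117, adjusted p = 0.00236, edgeR), and at 1297 and 1173 against 563 and 526 with LPS + MSU (-1.18, SE 0.124, adjusted p = 0.00189), which is 0.482 and 0.441 of the level in *Ncoa6*-sufficient cells. Per the authors, the loxP sites flank an exon of *Ncoa6*, so these counts over the whole gene do not measure how much intact transcript remained. All 10 macrophage markers were present, summing to 256200 to 595400 normalized counts, while the marker lists of other cell types summed to 23.6 to 6959. The highest of these were the megakaryocyte list (3838 to 6113), led by *Vwf*, and the endothelial list, led by *Kdr*, which summed to 483 to 755 with medium alone and 3296 to 6959 with LPS + MSU, and the part of other cells in the Rab values was not tested. *Mcpt4*, *Tpsb2*, *Tpsab1*, *Fcer1a*, *Blk*, *Cd3g*, *Cd8a*, *Ncr1*, *Nkg7* and *Emcn* were at 0. In bulk cultures, fewer cells of a type and less RNA per cell cannot be told apart.

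Levels are given as normalized counts, that is, counts brought to a common library size with TMM factors. Where genes are compared with each other, the values are normalized counts per kb of merged exons. By the latter measure the Rab genes spanned 4 orders of size, from *Rab26* at 0.464 to *Rab7* at 4504 per kb as the mean of the 8 libraries, and 10 of 54 were above 1000 per kb. The leading genes came from every route: *Rab7*, which directs late endosomes and phagosomes to lysosomes (4504), *Rab5c*, an early endosome fusion Rab (4274), *Rab1a* and *Rab1b* of ER-to-Golgi transport (2451 and 1625), *Rab8b* and *Rab10*, which serve traffic to the plasma membrane (2162 and 1720), *Rab32* of lysosome-related organelles (1381), *Rab2a* of the ER-Golgi interface (1304), *Rab12*, which sends recycling receptors to lysosomes (1098), and *Rab20*, a Rab of endosomes and maturing phagosomes (1082). These 10 genes held 64.0% of the summed per-kb level of all 54. Classical granule Rabs were far lower, with *Rab3d* at 199, *Rab3a* at 28.8 and *Rab27a* at 20.2 per kb.

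**Figure D1:**
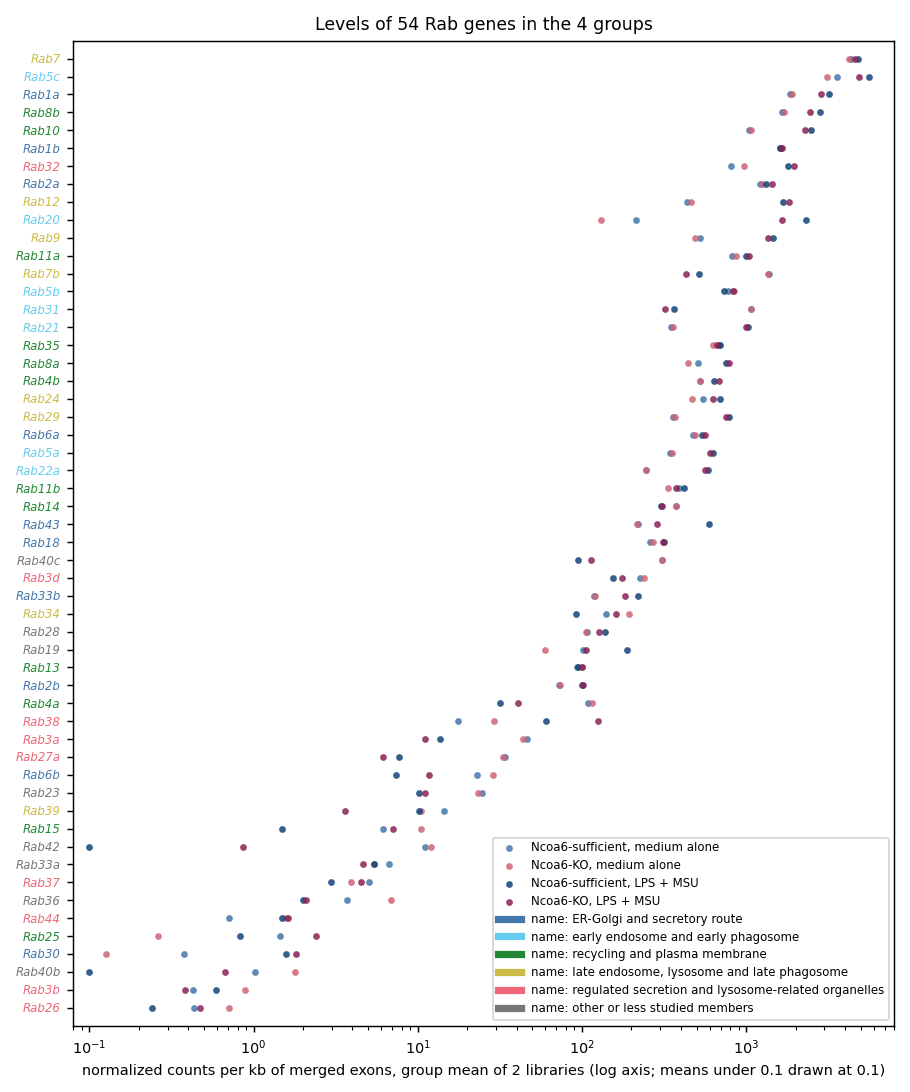
Group means (points, 2 libraries each) of normalized counts per kb of merged exons on a log axis for the 54 Rab genes, ordered by their mean over 8 libraries, with gene names coloured by role. *Rab7* (4504 per kb) and *Rab5c* (4274) lead, and *Rab20* is the high-ranking gene whose group means are spread most widely.

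The make-up of the Rab mRNA pool was described by the share of the summed per-kb level that each role held within a library, a measure that does not depend on scaling between libraries. With medium alone, late endosome, lysosome and late phagosome Rabs held 27.6% ± 0.163 in *Ncoa6*-sufficient and 27.5% ± 0.838 in *Ncoa6*-KO cells (SD, n = 2 each), the largest share. Early endosome and early phagosome Rabs held 23.4% ± 0.206 and 22.0% ± 0.0393. With LPS + MSU the order of these roles changed in *Ncoa6*-sufficient cells, where the early endosomal share was 27.5% ± 0.384 and the late endosomal share 24.5% ± 0.87. In *Ncoa6*-KO cells the shares were 25.6% ± 0.531 and 25.4% ± 1.05, within the spread of each other. Much of the early endosomal change lay in *Rab20*. With LPS + MSU this gene went from 212.9 to 2329 per kb in *Ncoa6*-sufficient and from 129.9 to 1658 in *Ncoa6*-KO cells. A share without *Rab20* was not calculated, so neither the change of order nor the other share changes given here are shown apart from that gene. With *Rab20* included, the early endosomal share was higher in all 4 LPS + MSU libraries (25.2% to 27.7%) than in all 4 medium libraries (22.0% to 23.6%). The ER-Golgi share went the other way, from 20.9% ± 0.0972 and 21.5% ± 0.185 with medium alone to 19.3% ± 0.327 and 19.2% ± 0.172 with LPS + MSU. Recycling and plasma membrane Rabs stayed between 22.0% and 23.2% in all 8 libraries. The 8 members with less studied functions held between 1.79% and 2.05% at rest and between 0.954% and 1.13% after stimulation, without overlap.

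Members near the count minimum carried little information. Just inside it were *Rab26* (a sum of 11 over 8 libraries), *Rab25* (15), *Rab40b* (16) and *Rab3b* (17), and just outside it were *Rab27b* (6), *Rab39b* (5), *Rab17* (3), *Rab3c* (1) and *Rab9b* (0). Altogether 42 of the 54 members averaged at least 50 normalized counts. The 12 below that were *Rab39*, *Rab15*, *Rab42*, *Rab33a*, *Rab37*, *Rab36*, *Rab44*, *Rab25*, *Rab30*, *Rab40b*, *Rab3b* and *Rab26*, and a Rab not seen here is not detectable at this depth rather than shown to be absent.

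The genotype comparison with medium alone asked what differed between *Ncoa6*-KO and *Ncoa6*-sufficient resting macrophages. Only the *Ncoa6*-KO cells carried Cre, so loss of *Ncoa6* and the presence of Cre cannot be told apart. Among the Rab genes a single one passed the test, *Rab20*, which was lower in *Ncoa6*-KO BMDMs. Thus 0 of 54 were higher, against 0.573% of all genes tested, and 1 of 54 was lower, against 1.3% of all genes, so the Rab genes were called about as often as genes at large. *Rab20* stood at 306 and 286 normalized counts in the *Ncoa6*-sufficient libraries and at 191 and 170.3 in the *Ncoa6*-KO libraries, without overlap (log2 fold change -0.71, SE 0.128, adjusted p = 0.0237, edgeR). The median log2 fold change was 0.02 over the 54 members and -0.03 over all genes, and 39 of the 42 members that averaged at least 50 counts lay within 0.5 of 0 on the log2 scale.

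With LPS + MSU 5 of 54 Rab genes passed the test between genotypes. *Rab34*, *Rab38* and *Rab15* were higher in *Ncoa6*-KO BMDMs (3 of 54, 5.56%, against 1.96% of all genes) and *Rab20* and *Rab19* were lower (2 of 54, 3.7%, against 1.63% of all genes). Over all members the median log2 fold change was 0.02, over the members averaging at least 50 counts it was -0.05, and over all genes it was 0.00, so that most Rab genes were at similar levels in both genotypes.

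*Rab20* is an endosomal and phagosomal Rab that macrophages induce with inflammatory stimuli. Its LPS + MSU libraries read 3570.2 and 2914 normalized counts in *Ncoa6*-sufficient and 2389 and 2226 in *Ncoa6*-KO cells (log2 fold change -0.49, SE 0.109, adjusted p = 0.0359). *Rab20* overlaps *E230013L22Rik* on the opposite strand (mean 129.1 counts against 1165.3), and its counts were not whole in any of the 8 libraries. Every *Ncoa6*-KO library was below every *Ncoa6*-sufficient library of the same condition, both at rest and after stimulation. *Rab19*, a Golgi-associated Rab whose function is less studied, had the same order, with 154 and 166 against 111 and 77.3 normalized counts at rest (log2 fold change -0.75, SE 0.178, adjusted p = 0.066, not called). With LPS + MSU it read 298 and 292 against 174 and 159.5 (log2 fold change -0.82, SE 0.178, adjusted p = 0.0329).

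*Rab34*, a Rab of macropinosomes, lysosome positioning and cilium formation, was the higher gene in *Ncoa6*-KO cells with the smallest error. With LPS + MSU it read 209 and 231 in *Ncoa6*-sufficient and 388 and 378 in *Ncoa6*-KO libraries (log2 fold change 0.80, SE 0.13, adjusted p = 0.0104). Resting cultures read 307 and 358 and 450.5 and 475 (log2 fold change 0.48, SE 0.117, adjusted p = 0.077, not called). No library of one genotype reached the range of the other in either condition. *Rab38*, which with *Rab32* supplies cargo to melanosomes and other lysosome-related organelles, read 99.7 and 89.5 against 173 and 224 with LPS + MSU (log2 fold change 1.06, SE 0.22, adjusted p = 0.0276). At rest it read 28.5 and 26.7 against 52.8 and 38.6 (log2 fold change 0.74, SE 0.255, adjusted p = 0.217, not called). *Rab32*, its close relative, did not pass either test (log2 fold change 0.11, SE 0.17, adjusted p = 0.797 with LPS + MSU).

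*Rab15*, a Rab of recycling endosomes best studied in neurons, was called at low counts. The deposited counts were 2 and 8 in the *Ncoa6*-sufficient and 20 and 28 in the *Ncoa6*-KO libraries with LPS + MSU (log2 fold change 2.22, SE 0.518, adjusted p = 0.043). They were 40 and 31 against 69 and 55 at rest (log2 fold change 0.76, SE 0.358, adjusted p = 0.413, not called). *Rab15* also overlaps *Fntb* on the opposite strand, which averaged 230.0 counts against 31.6 for *Rab15*, and whether counting used the strand is not given in the sources used here.

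**Figure D2:**
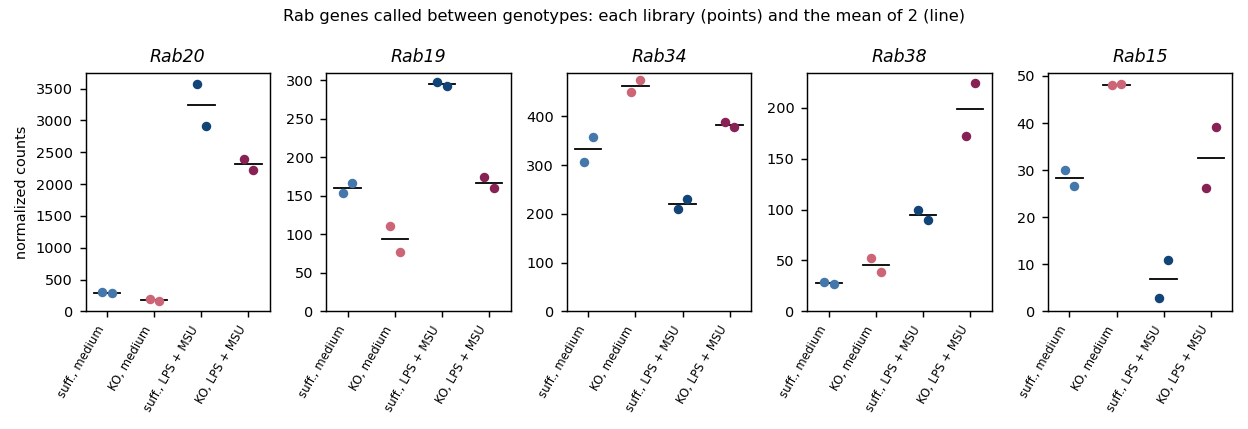
Normalized counts of the 5 Rab genes called between genotypes, each library a point and the mean of 2 a line, on axes that start at 0. *Rab20* and *Rab19* are lower and *Rab34*, *Rab38* and *Rab15* higher in *Ncoa6*-KO libraries of both conditions, and only *Rab20* passed the test with medium alone.

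These genotype calls depended on single libraries. Leaving out the second *Ncoa6*-KO library or the first *Ncoa6*-sufficient library with LPS + MSU took the count of Rab genes called with LPS + MSU from 5 to 0, and that of all genes from 632 to 63 and 49. With medium alone, *Rab20* was no longer called without the first or the second *Ncoa6*-sufficient library or without the second *Ncoa6*-KO library (adjusted p up to 0.271), and its log2 fold change over all libraries left out in turn ranged from -0.80 to -0.63. In the LPS + MSU comparison the corresponding ranges were -0.64 to -0.35 for *Rab20*, -0.90 to -0.77 for *Rab19*, 0.72 to 0.86 for *Rab34*, 0.86 to 1.22 for *Rab38* and 1.54 to 3.49 for *Rab15*, all in one direction. Of the macrophage markers, which serve as a check of the cultures, 3 of 10 were lower in *Ncoa6*-KO cells with medium alone and 4 of 10 with LPS + MSU. Their summed levels were 256200 to 295500 normalized counts in *Ncoa6*-KO against 396800 to 464700 in *Ncoa6*-sufficient cells at rest, and 384200 to 410200 against 524600 to 595400 after stimulation. The highest of these markers was *Lyz2* (mean 182700 normalized counts), the locus that drives Cre in the *Ncoa6*-KO cells. Sums without *Lyz2* were not compared, and the part of the marker difference in the Rab values was not tested.

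**Figure D3:**
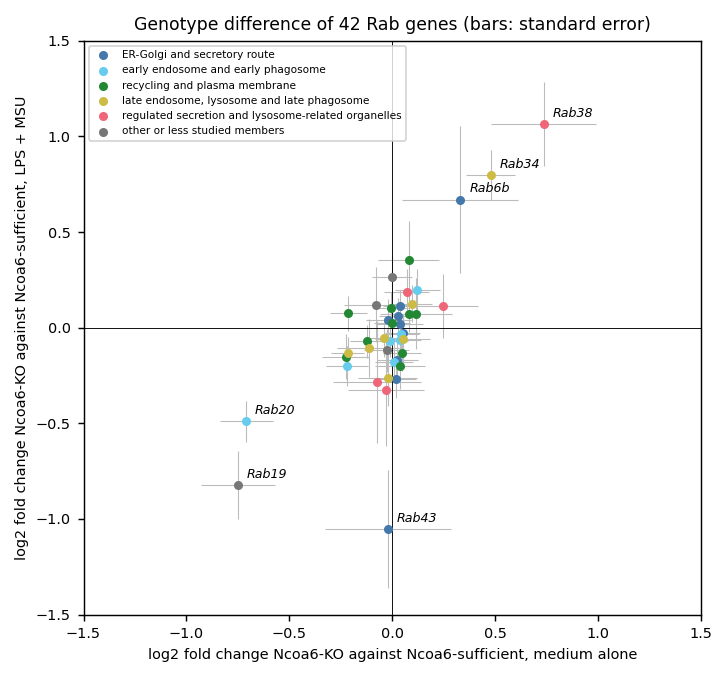
Log2 fold change of *Ncoa6*-KO against *Ncoa6*-sufficient BMDMs with medium alone (x axis) and with LPS + MSU (y axis) for the 42 Rab genes averaging at least 50 counts, with standard errors from edgeR and colour by role. Most points lie near the origin, *Rab20* (-0.71, -0.49) and *Rab19* (-0.75, -0.82) lie at the lower left, *Rab34* (0.48, 0.80) and *Rab38* (0.74, 1.06) at the upper right, and *Rab43* (-0.02, -1.05), which was not called, has wide bars.

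Start-site sequences are shown for *Rab20*, *Rab19* and *Rab34*, which were called between genotypes at more than low counts, because NCOA6 is a coactivator of transcription. Of the 54 members 44 were matched, with 56 windows that run from 250 bases before to 50 bases after a start in GRCm38.p6. *Rab38* was not among the matches, and *Rab15*, called at low counts, has 4 windows that are not printed. The windows below are written 5′ to 3′ on the gene's strand, with capitals for the motif found by the search.
*Rab20*, chr8:11478591-11478890, minus strand, with capitals marking an E-box at base -46 from the start: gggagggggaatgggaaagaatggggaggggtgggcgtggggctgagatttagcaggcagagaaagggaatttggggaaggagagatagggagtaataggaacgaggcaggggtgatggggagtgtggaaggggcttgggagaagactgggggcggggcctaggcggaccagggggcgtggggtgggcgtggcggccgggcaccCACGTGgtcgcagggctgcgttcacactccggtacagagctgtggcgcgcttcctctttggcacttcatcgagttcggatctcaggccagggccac
*Rab19*, chr6:39381103-39381402, plus strand, with capitals marking 2 overlapping matches to the core of the interferon-stimulated response element (ISRE), from base -10: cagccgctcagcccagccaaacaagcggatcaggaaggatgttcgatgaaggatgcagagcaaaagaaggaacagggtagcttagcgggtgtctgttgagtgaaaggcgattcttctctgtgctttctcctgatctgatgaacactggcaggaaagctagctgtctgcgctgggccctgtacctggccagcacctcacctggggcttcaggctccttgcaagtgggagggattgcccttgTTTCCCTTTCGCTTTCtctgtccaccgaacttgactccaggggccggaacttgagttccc
*Rab34*, chr11:78188177-78188476, plus strand, the first of its windows, with capitals marking an AP-1 match at base -58: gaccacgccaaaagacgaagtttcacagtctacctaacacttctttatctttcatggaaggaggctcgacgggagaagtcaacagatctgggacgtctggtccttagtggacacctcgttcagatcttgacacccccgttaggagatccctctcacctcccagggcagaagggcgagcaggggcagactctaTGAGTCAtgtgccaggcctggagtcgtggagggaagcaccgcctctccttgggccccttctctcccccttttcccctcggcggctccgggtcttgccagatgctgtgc

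Both strands of each window were searched for 6 motifs, and overlapping matches to different motifs were allowed. The E-box CACGTG was in 6 of 56 Rab windows (10.7%, against 7.15% of all 32851 windows), namely those of *Rab20*, *Rab21*, *Rab23*, *Rab24*, *Rab27a* and *Rab5a*. The AP-1 motif TGANTCA was in 2 (3.57% against 7.81%), of *Rab34* and *Rab15*. An ISRE core, searched as GAAA, any 2 bases and GAAA, was in 1 (1.79% against 3.44%), that of *Rab19*. CRE, TGACGTCA, was in 2 (3.57% against 1.79%), of *Rab25* and *Rab5a*, and the PU.1 motif GAGGAAGT in 2 (3.57% against 3.2%), of *Rab2b* and *Rab32*. The NF-κB consensus was in 3 (5.36% against 8.46%), of *Rab11a*, *Rab15* and *Rab28*. A match is a description of these letters only.

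The LPS + MSU comparisons asked how stimulation changed the same genes within each genotype. In *Ncoa6*-sufficient BMDMs 37 of 54 Rab genes passed the test, 24 higher (44.4%, against 24.7% of all genes) and 13 lower (24.1%, against 30.5%). In *Ncoa6*-KO BMDMs 34 of 54 passed, 21 higher (38.9%, against 25.2%) and 13 lower (24.1%, against 27.9%). The comparisons share no library with each other, and 32 Rab genes were called in both and in the same direction, 21 higher and 11 lower. *Rab43*, *Rab18*, *Rab34*, *Rab28* and *Rab15* were called in *Ncoa6*-sufficient cells alone, *Rab39* and *Rab36* in *Ncoa6*-KO cells alone, and 15 in neither. Each genotype comparison above shares 2 libraries with each of these.

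These directions are relative to a scaling that matters here, because TMM factors were 1.23 to 1.29 with medium alone and 0.766 to 0.829 with LPS + MSU. The median log2 fold change of the Rab genes was 0.15 in *Ncoa6*-sufficient and 0.20 in *Ncoa6*-KO cells, against -0.12 and -0.07 over all genes. Over the members averaging at least 50 counts it was 0.28 and 0.27, against -0.10 and -0.05 over the 11219 genes averaging at least 50. When libraries were scaled by total counts alone, an alternative added after the data had been seen, the median of all genes moved to -0.78 and -0.71 and that of the Rab genes to -0.52 and -0.43. Over all genes 12151 and 11853 of 17625 were then called in either direction, against 9737 and 9359 with TMM factors. The Rab calls became 10 higher and 30 lower in *Ncoa6*-sufficient and 10 higher and 28 lower in *Ncoa6*-KO cells. With DESeq2 size factors in edgeR they were 26 higher and 12 lower, and 26 higher and 13 lower. The distance between the Rab median and the median of all genes was 0.27 with TMM, 0.27 with DESeq2 size factors and 0.26 with total counts in *Ncoa6*-sufficient cells. In *Ncoa6*-sufficient cells 10 Rab genes were called higher and 12 lower under each scaling tried, and in *Ncoa6*-KO cells 10 and 11. Those called under each scaling in both genotypes were *Rab10*, *Rab12*, *Rab20*, *Rab9*, *Rab21*, *Rab29*, *Rab22a* and *Rab38*, which were higher, and *Rab7b*, *Rab31*, *Rab40c*, *Rab3d*, *Rab4a*, *Rab3a*, *Rab27a*, *Rab6b* and *Rab23*, which were lower.

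**Figure D4:**
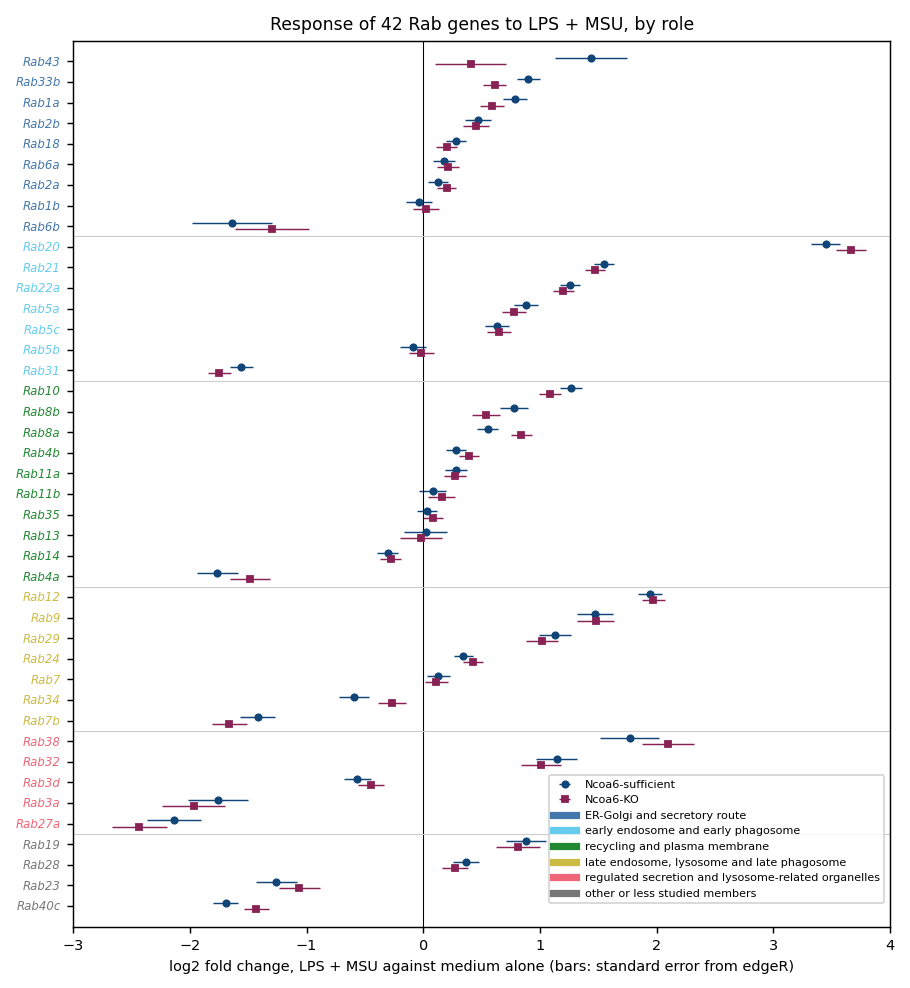
Log2 fold change of LPS + MSU against medium alone in *Ncoa6*-sufficient (circles) and *Ncoa6*-KO (squares) BMDMs for the 42 Rab genes averaging at least 50 counts, with standard errors from edgeR, grouped by role. *Rab20* (3.45 and 3.67) is the farthest to the right and *Rab27a* (-2.14 and -2.44) the farthest to the left.

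Of the early endosome and early phagosome Rabs, 5 of 7 were higher and 1 lower in both genotypes with TMM factors, against 24.7% and 25.2% of all genes higher, and under total counts 3 were higher and 2 lower. No test compared the roles with each other. For this role and those below, the median of all genes under total counts was itself -0.78 and -0.71. *Rab20* rose from 306 and 286 to 3570.2 and 2914 normalized counts in *Ncoa6*-sufficient cells and from 191 and 170.3 to 2389 and 2226 in *Ncoa6*-KO cells, the largest rise among members averaging at least 50 counts (log2 fold change 3.45, SE 0.123, adjusted p = 2.19e-09, and log2 fold change 3.67, SE 0.127, adjusted p = 1.81e-09 in *Ncoa6*-KO cells). This 10.9-fold and 12.7-fold rise took it from a minor gene to one of the more abundant Rab mRNAs per kb, at 2329 per kb in the stimulated *Ncoa6*-sufficient cells. *Rab21*, which carries integrins through early endosomes, rose from 1740.5 and 1799 to 5324 and 5031 in *Ncoa6*-sufficient cells (log2 fold change 1.55, SE 0.0879, adjusted p = 5.99e-08). In *Ncoa6*-KO cells it went from 1809.6 and 1834 to 5158 and 4949 (log2 fold change 1.47). *Rab22a*, a Rab of early endosome sorting and clathrin-independent cargo, rose by a log2 fold change of 1.26 and 1.20. Of the *Rab5* paralogs, *Rab5a* (0.88 and 0.78) and *Rab5c* (0.63 and 0.65) rose with TMM factors and were not called under total counts, while *Rab5b* was not called (-0.09 and -0.02). *Rab31*, which moves cargo between the trans-Golgi network and endosomes, fell from 4251 and 3895 to 1457 and 1306 in *Ncoa6*-sufficient cells (log2 fold change -1.56, SE 0.096, adjusted p = 1.14e-07). Its *Ncoa6*-KO libraries went from 4202 and 4004 to 1222 and 1221 (log2 fold change -1.75).

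Late endosome and lysosome Rabs were split, with 4 of 8 higher and 2 lower in each genotype (3 and 5 under total counts). Of all genes 24.7% and 25.2% were higher and 30.5% and 27.9% lower in *Ncoa6*-sufficient and *Ncoa6*-KO cells with TMM factors. *Rab12* rose from 1274 and 1362 to 4796 and 5345 in *Ncoa6*-sufficient cells (log2 fold change 1.94, SE 0.101, adjusted p = 3.2e-08). The *Ncoa6*-KO values went from 1414 and 1402 to 5836 and 5217 (log2 fold change 1.97). *Rab9*, which returns mannose 6-phosphate receptors to the Golgi, rose from 912 and 926 to 2529.8 and 2571 in *Ncoa6*-sufficient cells (log2 fold change 1.47, SE 0.156, adjusted p = 9.74e-06). It went from 975 and 724 to 2722 and 2019 in *Ncoa6*-KO cells (log2 fold change 1.48). *Rab29*, a partner of the kinase LRRK2, rose by 1.13 and 1.02. *Rab24*, linked to autophagy, rose by 0.34 and 0.43 with TMM factors and was called lower under total counts (-0.33 and -0.21). It overlaps *Prelid1* on the opposite strand (mean 7076.7 counts against 1130.4), and its counts were not whole in any of the 8 libraries. *Rab7b*, which moves late endosomal cargo to the Golgi and limits Toll-like receptor signalling, fell from 6608 and 6183 to 2686 and 2095 in *Ncoa6*-sufficient cells (log2 fold change -1.42, SE 0.148, adjusted p = 8.49e-06). In *Ncoa6*-KO cells it went from 6616 and 5982 to 2257 and 1722 (log2 fold change -1.66). Its abundant relative *Rab7* was not called (0.13 and 0.11), with 8 library values between 10914 and 12945. *Rab34* fell in *Ncoa6*-sufficient cells (log2 fold change -0.59, SE 0.127, adjusted p = 0.00207) and was at -0.27 in *Ncoa6*-KO cells (adjusted p = 0.0784, edgeR). *Rab39*, which acts in phagosome acidification and has been tied to interleukin-1 release, averaged under 50 counts, at 42.0 and 43.9 and 36.0 and 24.8 in *Ncoa6*-sufficient and 34.1 and 28.1 and 13.1 and 8.39 in *Ncoa6*-KO cells, and passed the test in the latter (log2 fold change -1.52, SE 0.393, adjusted p = 0.00679).

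Recycling and plasma membrane Rabs included 5 of 12 that were higher in both genotypes, the same 5 genes, against 24.7% and 25.2% of all genes. Under total counts 1 was higher in *Ncoa6*-sufficient and 2 in *Ncoa6*-KO cells and 8 were lower in each. *Rab10*, which brings the LPS receptor TLR4 to the macrophage surface, rose most, from 3579 and 3692 to 9187 and 8354 in *Ncoa6*-sufficient cells (log2 fold change 1.27, SE 0.0937, adjusted p = 4.94e-07). Its *Ncoa6*-KO libraries went from 3771 and 3754 to 8001 and 8006 (log2 fold change 1.09). *Rab8b* and *Rab8a*, which carry secretory cargo to the plasma membrane, rose by 0.78 and 0.55 in *Ncoa6*-sufficient and by 0.54 and 0.84 in *Ncoa6*-KO cells. *Rab11a* of the recycling endosome (0.28 and 0.27) and *Rab4b* of fast recycling (0.28 and 0.39) rose slightly with TMM factors, and under total counts both were called lower (*Rab11a* at -0.39 and -0.36, *Rab4b* at -0.39 and -0.24). *Rab4a*, the paralog of *Rab4b*, fell from 203 and 178 to 55.4 and 56.5 in *Ncoa6*-sufficient cells (log2 fold change -1.77, SE 0.177, adjusted p = 6.33e-06). The *Ncoa6*-KO values went from 189.8 and 213 to 70.6 and 72.8 (log2 fold change -1.49), although it overlaps *Gm20388*, a readthrough gene of the same strand with a mean of 1662.5 counts. *Rab14*, which links the Golgi and endosomes, fell by 0.31 and 0.28 on the log2 scale, a call that DESeq2 size factors removed in *Ncoa6*-sufficient cells. *Rab15* fell in *Ncoa6*-sufficient cells (log2 fold change -2.02, SE 0.505, adjusted p = 0.00533) and was at -0.56 in *Ncoa6*-KO cells (adjusted p = 0.232, edgeR). *Rab35* and *Rab11b* were within 0.16 of 0, and *Rab13*, a junction Rab of epithelia, was at 0.02 and -0.02.

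Among the ER-Golgi and secretory Rabs, 6 of 10 were higher in *Ncoa6*-sufficient and 4 of 10 in *Ncoa6*-KO cells, with 1 lower in each. Of all genes 24.7% and 25.2% were higher and 30.5% and 27.9% lower. Under total counts 1 of these Rabs was higher and 5 lower in each genotype. *Rab1a* rose from 7004 and 7124 to 12751 and 11611 in *Ncoa6*-sufficient cells (log2 fold change 0.79, SE 0.1, adjusted p = 4.3e-05). It went from 7159 and 7210.2 to 11321 and 10309 in *Ncoa6*-KO cells (log2 fold change 0.59, which was -0.05 under total counts), while *Rab1b* was not called (-0.04 and 0.02). *Rab33b*, a Golgi Rab that binds the autophagy protein ATG16L1, rose by 0.90 and 0.61, and *Rab2b* by 0.47 and 0.45, both with TMM factors. *Rab2a* (0.13 and 0.20) and *Rab6a* (0.18 and 0.21) were not called. *Rab6b*, the less abundant paralog of *Rab6a*, fell from 127 and 106 to 27.7 and 46.8 in *Ncoa6*-sufficient cells (log2 fold change -1.64, SE 0.346, adjusted p = 0.00181). In *Ncoa6*-KO cells it went from 189 and 102 to 65.3 and 53.2 (log2 fold change -1.30). *Rab30*, a Golgi Rab, was called higher at counts of 4 and 5 against 11 and 11 in *Ncoa6*-sufficient and of 1 and 2 against 13 and 13 in *Ncoa6*-KO cells.

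*Rab43*, a Rab of retrograde and Golgi traffic, had the widest spread among abundant members. It stood at 1229 and 1208 at rest and at 4249 and 2352 after LPS + MSU in *Ncoa6*-sufficient cells (log2 fold change 1.44, SE 0.308, adjusted p = 0.00201), and at 1413 and 986 and 2096 and 1084 in *Ncoa6*-KO cells (log2 fold change 0.41, SE 0.307, adjusted p = 0.294). In every group the first library read higher than the second. Its genotype difference with LPS + MSU was not called (log2 fold change -1.05, SE 0.307, adjusted p = 0.0979). Of the 100-base words of its exons 73.8% were also in *Gm45140*, an overlapping protein-coding gene of the same strand, and its counts were not whole in any of the 8 libraries, so the reads of this locus were divided between both genes by the estimation. The sum of both genes was 1768 and 1596 against 4882 and 3041 normalized counts in *Ncoa6*-sufficient and 1818 and 1370 against 2439 and 1574 in *Ncoa6*-KO cells, so libraries of the same group differed in the sum as well.

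Of the secretory granule and lysosome-related organelle Rabs, 2 of 9 were higher and 3 lower in each genotype (2 and 4 in *Ncoa6*-sufficient and 1 and 3 in *Ncoa6*-KO cells under total counts). Of all genes 24.7% were higher and 30.5% lower in *Ncoa6*-sufficient and 25.2% and 27.9% in *Ncoa6*-KO cells with TMM factors. The counts of this role were thus near those of genes at large. *Rab38* rose from 28.5 and 26.7 to 99.7 and 89.5 in *Ncoa6*-sufficient cells (log2 fold change 1.77, SE 0.252, adjusted p = 0.000103). Its *Ncoa6*-KO libraries went from 52.8 and 38.6 to 173 and 224 (log2 fold change 2.10). *Rab32* rose from 1849 and 1959.6 to 4170.1 and 4240.3 in *Ncoa6*-sufficient cells (log2 fold change 1.14, SE 0.172, adjusted p = 0.000163). The *Ncoa6*-KO values went from 1780.4 and 2742 to 4090.5 and 5006 (log2 fold change 1.01, the latter not called under total counts). In contrast, *Rab27a*, which docks secretory granules and lysosome-related organelles at the plasma membrane, fell from 120.1 and 143 to 30.5 and 28.9 in *Ncoa6*-sufficient cells (log2 fold change -2.14, SE 0.229, adjusted p = 1.07e-05). It went from 118 and 139.6 to 22.2 and 25.2 in *Ncoa6*-KO cells (log2 fold change -2.44). *Rab3a*, the synaptic vesicle Rab, fell from 107 and 98.9 to 34.6 and 26.2 in *Ncoa6*-sufficient cells (log2 fold change -1.76, SE 0.26, adjusted p = 0.000139). In *Ncoa6*-KO cells it went from 104 and 92.2 to 30.1 and 19.6 (log2 fold change -1.97), and *Rab3d* of secretory granules fell by 0.56 and 0.45 on the log2 scale. The 4 others of this role, *Rab37*, *Rab44*, *Rab3b* and *Rab26*, averaged under 50 counts and were not called.

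Of the less studied members, *Rab19* rose from 154 and 166 to 298 and 292 in *Ncoa6*-sufficient cells (log2 fold change 0.88, SE 0.172, adjusted p = 0.00105). Its *Ncoa6*-KO libraries went from 111 and 77.3 to 174 and 159.5 (log2 fold change 0.81, neither called under total counts). *Rab40c*, which forms a ubiquitin ligase through its SOCS box, fell from 1004 and 902 to 284 and 304 in *Ncoa6*-sufficient cells (log2 fold change -1.70, SE 0.107, adjusted p = 1.41e-07). The *Ncoa6*-KO values went from 986 and 919 to 349 and 358 (log2 fold change -1.43). *Rab23*, known from Hedgehog signalling and cilia, fell by 1.26 and 1.06 on the log2 scale. *Rab28* rose by 0.36 in *Ncoa6*-sufficient cells and was at 0.27, not called, in *Ncoa6*-KO cells, and under total counts it was called lower in both (-0.31 and -0.36). *Rab42* had 10 and 11 counts at rest in *Ncoa6*-sufficient and 15 and 9 in *Ncoa6*-KO cells, and 0, 0, 1 and 0 in the stimulated libraries in the same order, which in *Ncoa6*-sufficient cells is at least 2.0-fold lower when 3 counts per library are taken as the floor. *Rab36* fell in *Ncoa6*-KO cells, from 59 and 50 counts to 8 and 11, and stood at 27 and 30 against 5 and 13 in *Ncoa6*-sufficient cells, which was not called.

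Ratios between paralogs that share a number were compared within libraries, which removes the scaling between libraries. The 11 pairs among the members averaging at least 50 counts were set after the values had been seen. The 4 medium and 4 LPS + MSU libraries of both genotypes were compared by a two-sided exact permutation test, which cannot go below 0.0286. This test took the 8 libraries as exchangeable and kept neither genotype nor a possible shared mouse together. Same-numbered libraries of one genotype deviated together across genes (correlations 0.339 and 0.366), so the p-values hold only under that assumption. In 8 of 11 pairs the conditions did not overlap (exact permutation p = 0.0286 each, 0.0393 after Benjamini-Hochberg adjustment over 11 pairs). *Rab7* over *Rab7b* went from a log2 ratio of 0.83 ± 0.05 to 2.50 ± 0.22 (SD, n = 4), a difference of 1.67. *Rab6a* over *Rab6b* went from 3.82 ± 0.44 to 5.47 ± 0.52. *Rab4a* over *Rab4b* went from -2.39 ± 0.10 to -4.36 ± 0.16, and *Rab3a* over *Rab3d* from -3.28 ± 0.14 to -4.67 ± 0.42. In these 4 pairs the more abundant paralog gained on the other.

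The other 4 pairs that changed did not all share that direction. *Rab1a* over *Rab1b* moved from 0.95 ± 0.10 to 1.64 ± 0.18, and *Rab5a* over *Rab5b* from -0.89 ± 0.19 to -0.02 ± 0.16, so that both *Rab5* genes reached about equal counts. *Rab5b* over *Rab5c* moved by -0.69, in favour of the more abundant *Rab5c*. *Rab2a* over *Rab2b* moved from 3.11 ± 0.0536 to 2.81 ± 0.085, so that the less abundant *Rab2b* gained, as *Rab5a* did. The ratios *Rab5a* over *Rab5c* (0.19, exact permutation p = 0.114), *Rab8a* over *Rab8b* (0.04, p = 0.686) and *Rab11a* over *Rab11b* (0.15, p = 0.314) overlapped between conditions. No 2 Rab genes shared a 100-base word, the read length. Of the genes in these ratios *Rab11b* shared 7.11%, *Rab5b* 6.14% and *Rab7* 7.91% of such words with a pseudogene. *Rab8b* shared 3.88% with *Gm20689*, *Rab11a* 0.247% with *Gm47308*, and *Rab4b* 49.3% with *Gm21983*, which had 0 counts. *Rab2b* and *Rab6a* shared none, but their counts were not whole in any of the 8 libraries. On the opposite strand they overlap *Tox4* (mean 3325.8 counts against 346.5) and *Mrpl48* (626.1 against 1880.5).

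**Figure D5:**
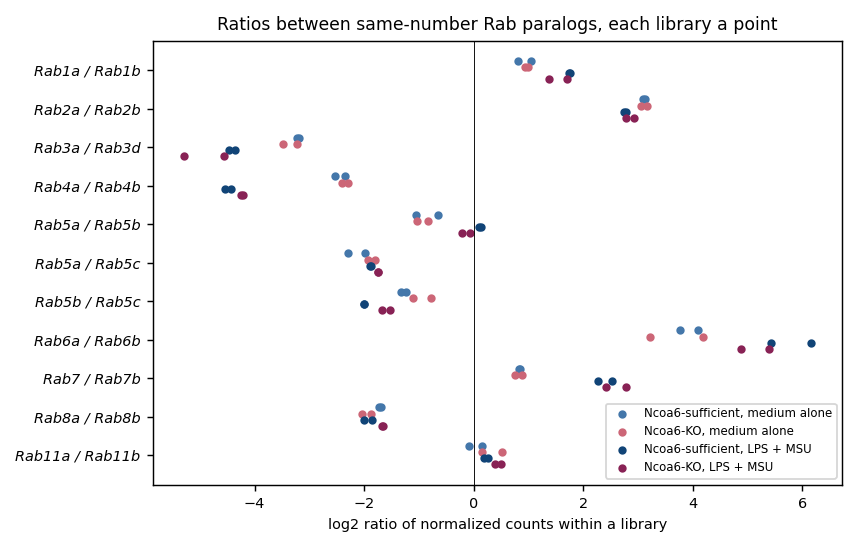
Log2 ratio of normalized counts between 2 same-number Rab paralogs within each library (points), for 11 pairs and coloured by group. Stimulated libraries sit apart from medium libraries in 8 pairs, most in *Rab4a* / *Rab4b*, *Rab7* / *Rab7b* and *Rab6a* / *Rab6b*, and overlap with them in *Rab5a* / *Rab5c*, *Rab8a* / *Rab8b* and *Rab11a* / *Rab11b*.

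No Rab gene passed the interaction test, which asks whether LPS + MSU acted differently in the 2 genotypes. In edgeR 0 of 17625 genes were called (0%), 1045 genes and 4 of the Rab genes had an unadjusted p under 0.05, and DESeq2 called 45 genes and 0 Rab genes. The difference of the log2 fold changes was 0.22 for *Rab20* (SE 0.168), -0.07 for *Rab19* (SE 0.253), 0.32 for *Rab34* (SE 0.175), 0.33 for *Rab38* (SE 0.341) and 1.46 for *Rab15* (SE 0.642). Among the members averaging at least 50 counts, 41 of 42 had a difference under 0.5 in size and the exception was *Rab43* (-1.03, SE 0.432). Differences of the size of those errors were not detectable with 2 libraries per group, so a gene called in one genotype alone is not shown to respond differently.

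Regulators of Rab proteins were covered by lists that held 124 tested genes, of which 29 rose and 59 fell with LPS + MSU in *Ncoa6*-sufficient cells and 28 and 51 in *Ncoa6*-KO cells. For comparison, 24.7% of all genes rose and 30.5% fell in *Ncoa6*-sufficient and 25.2% and 27.9% in *Ncoa6*-KO cells, and of the lists below the GEFs and effectors lay closer to these shares than the GAPs did. Rab GAPs mostly fell, with 21 of 32 lower and 5 higher in each genotype and medians of -0.77 and -0.71 on the log2 scale. Under total counts 27 of 32 were lower and 3 higher in each, while the median of all genes was -0.78 in *Ncoa6*-sufficient cells. There the GAP median lay 0.66 below that of all genes and the GEF median 0.12 above it. *Tbc1d2* (Armus), a GAP for Rab7, fell from 776 and 873 to 44.3 and 53.7 normalized counts (log2 fold change -4.07, SE 0.147, adjusted p = 2.42e-09) and *Tbc1d16* by 2.73 on the log2 scale, while *Tbc1d13* and *Tbc1d1* rose by 2.03 and 1.96. Rab GEFs were balanced, with 13 of 36 higher and 12 lower (8 and 25 under total counts). *Rin2*, a GEF for Rab5, rose from 1623 and 1421 to 16140.0 and 11857 (log2 fold change 3.20, SE 0.152, adjusted p = 1.61e-08), *Dennd6b* rose by 2.79, and *Rab3il1*, a GEF for the Rab8 family, fell from 3611 and 3180.2 to 175 and 190.1 (log2 fold change -4.22, SE 0.129, adjusted p = 9.66e-10). *Dennd2c* fell by 3.20.

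Among 48 tested effectors and kinases 11 were higher and 22 lower (6 and 36 under total counts). Under total counts the medians of this list and of the chaperone list below each lay only 0.07 under the median of all genes. *Rab11fip1*, a Rab11 effector of recycling endosomes, rose from 287 and 279.6 to 4447 and 4664 (log2 fold change 4.01, SE 0.124, adjusted p = 1.03e-09) and *Inpp5b*, a phosphoinositide phosphatase that binds Rab proteins, by 2.28, while *Mical1* fell from 1551 and 1750.5 to 94.2 and 75.7 (log2 fold change -4.28, SE 0.174, adjusted p = 5.11e-09) and *Appl2*, an early endosome effector, by 2.53. Of 8 chaperone and prenylation genes 0 rose and 4 fell (8 under total counts), with *Chml*, the Rab escort protein 2 gene, at -1.24 and *Rabggta*, a subunit of Rab geranylgeranyl transferase, at -0.86. Between genotypes 1 of 124 regulators was higher and 1 lower in each condition, against 0.573% and 1.3% of all genes at rest and 1.96% and 1.63% with LPS + MSU, so these counts were near those of genes at large. *Tbc1d2* was higher (log2 fold change 0.50, SE 0.105, adjusted p = 0.0419) and *Dennd2a* lower (log2 fold change -1.24, SE 0.232, adjusted p = 0.0259) in *Ncoa6*-KO cells with medium alone, and *Sgsm2*, a Rab GAP, was higher (log2 fold change 1.19, SE 0.235, adjusted p = 0.0228) and *Dennd6b* lower (log2 fold change -0.54, SE 0.0977, adjusted p = 0.0163) with LPS + MSU. The calls of *Tbc1d2*, *Dennd2a* and *Dennd6b* were each lost when any one of the 4 libraries compared was left out (adjusted p up to 0.467, 0.319 and 0.145), and that of *Sgsm2* when any of 3 was left out (up to 0.187), with limma-voom, and when the 4 libraries were fitted alone.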

How the data were processed

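RNA from 8 cultures of bone marrow-derived macrophages was sequenced, with 2 libraries per group from different mice, and p-values measure the spread between these libraries. Per the labels, the authors used STAR 2.7.3a for alignment to GRCm38 and RSEM 1.3.3 with annotation release 101 for gene-level counts, and the submitters' notes also name DESeq2 and MultiQC. The deposited values are expected counts, not normalized, for 50615 genes, of which 50295 have a symbol.

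Expected counts were rounded, genes with a sum under 10 were left out, and edgeR 4.0.16 (R 4.3.3) was run with TMM factors. Its quasi-likelihood model held 1 mean per group and left 4 residual degrees of freedom. p-values were adjusted by Benjamini-Hochberg over all 17625 genes, and a gene was called under 0.05. A gene-wise exact permutation test of 2 libraries against 2 could not pass that limit, so all adjusted p-values of single genes come from these models. The calculation was tested on simulated data. Alternatives were DESeq2 1.42.0, its size factors in edgeR, limma-voom (limma 3.58.1) on unrounded counts, other count filters, a replicate block, fits restricted to the 4 libraries of a comparison, leave-one-out fits and, added after the data had been seen, total-count scaling. Promoters are RefSeq windows of GRCm38.p6, and positions, overlaps and exon lengths come from GENCODE M21 of GRCm38, another release than the authors used.

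Named were every Rab gene called between genotypes, the 8 largest changes in each direction per stimulus comparison with a mean of at least 50, the 3 highest per kb of each role, all members under 50, and from the regulator lists the genes called between genotypes and the 2 largest changes in each direction, while further members were named after their values were seen. The members and lists were chosen with earlier results of these data known.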

Additional observations from a re-analysis of the deposited data

Results flagged for a closer look

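*Rab1a* and *Rab10* were looked at again because every *Ncoa6*-KO library lay above every *Ncoa6*-sufficient library with medium alone and below every one with LPS + MSU. For *Rab1a* the log2 fold change of *Ncoa6*-KO against *Ncoa6*-sufficient cells was 0.0244 at rest and -0.1716 after stimulation, and for *Rab10* it was 0.0495 and -0.132. In the test of the difference itself neither passed (interaction, edgeR adjusted p = 0.919 for each), and none of these 4 genotype differences was called.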

How the results depend on the processing

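The counts of Rab genes called with LPS + MSU against medium alone moved by less than 1.5 times under every alternative, although the directions depended on scaling. Between genotypes with medium alone, 1 Rab gene was called, against 3 with no filter, and with libraries left out in turn 0 to 2. With LPS + MSU, 5 were called, 3 when the 4 libraries compared were fitted alone, and 0 to 4 with libraries left out. With no filter, this genotype comparison called 3 Rab genes higher and 4 lower, *Rab39* and *Rab43* (adjusted p = 1.02e-17, edgeR) being added. The interaction had 0, and 1 (*Rab43*) with no filter. Calls over all genes rose as well with no filter, from 331 to 1152 with medium alone, from 632 to 1611 with LPS + MSU and from 0 to 269 for the interaction.

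Whether same-numbered libraries came from one mouse is not given in the sources used here, and the main comparisons treat all libraries as separate. Their deviations correlated across genes at 0.339 and 0.366 between conditions of one genotype and at 0.0683 to 0.203 in the other 4 pairs of groups. With a replicate block across all groups or within each genotype, 3 Rab genes were called between genotypes with medium alone (*Rab19* and *Rab34* added) and 7 with LPS + MSU. Calls over all genes also rose, from 331 to 1023 and 1530 with medium alone and from 632 to 1532 and 2000 with LPS + MSU. For the interaction they rose from 0 to 86 and 444. Both blocks called *Rab43* lower in *Ncoa6*-KO cells with LPS + MSU (log2 fold change -1.06 and -0.94, adjusted p = 0.000709 and 3.17e-05, edgeR, against 0.0979 without a block). The block across groups added *Rab39* there and the block within each genotype *Rab6b*, and the latter gave 1 for the interaction (*Rab43*, adjusted p = 0.000566).

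Under total counts 5 Rab genes called higher with TMM factors in *Ncoa6*-sufficient cells were called lower (*Rab11a*, *Rab4b*, *Rab24*, *Rab18* and *Rab28*) and 3 in *Ncoa6*-KO cells (*Rab11a*, *Rab4b* and *Rab24*). Among the genes named by the rule, total counts turned the sign of the log2 fold change of LPS + MSU in *Ncoa6*-sufficient cells for *Rab11a* (-0.394), *Rab28* (-0.308), *Rab2a* (-0.545), *Rab5c* (-0.0427) and *Rab7* (-0.545), and in *Ncoa6*-KO cells for *Rab11a* (-0.364), *Rab1a* (-0.0452), *Rab1b* (-0.611), *Rab28* (-0.363), *Rab2a* (-0.435), *Rab43* (-0.231), *Rab7* (-0.524) and *Rab8b* (-0.0956). In *Ncoa6*-sufficient cells *Rab1b* was at 0.0753 with DESeq2 and with its size factors, 0.00105 with edgeR's own filter, 0.01845 in the fit of the 4 libraries and -0.134 to 0.084 with a library left out, and *Rab5b* at 0.0238 with DESeq2 and its size factors and -0.175 to 0.0241 with a library left out. In *Ncoa6*-KO cells *Rab1b* was at -0.0028 with no filter and -0.0771 to 0.112 with a library left out, and *Rab5b* at 0.0409 with DESeq2 and its size factors, 0.0147 with edgeR's own filter and -0.133 to 0.118 with a library left out. Without the first *Ncoa6*-KO library with LPS + MSU *Rab43* was at -0.154 (-0.154 to 0.809 over the libraries left out), and without the first *Ncoa6*-KO library with medium alone the interaction of *Rab19* was 0.224 (-0.301 to 0.224). The cause of these changes was not tested.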
